A study of Mus musculus with 24 samples.

Results

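Mouse bone marrow-derived macrophages on day 6 of co-culture (3 libraries, labelled as co-cultured) were compared with bone marrow-derived macrophages on day 0 that had not been co-cultured (3 libraries), which makes 6 of the 24 libraries in the series. The libraries were chosen by their titles alone. The other libraries hold the same cells on days 3 and 12 of co-culture and, on the same 4 days, macrophages grown from induced pluripotent stem cells (iPSC), with 3 libraries in each of the 8 groups. The series asks how well macrophages of either origin model the differentiation of tissue-resident macrophages, and its design text names the co-cultured bone marrow-derived cells BM-Micro and those without co-culture BM-Mac. Strain, age, sex, genotype and the partner cell of the co-culture are not given in the sources used here. Because the day 0 cells were the ones without a partner, time in culture and co-culture changed together and cannot be told apart. The submitters describe the replicates as independent. Unless another fit is named, the p-values below rest on a spread between replicates pooled over all 24 libraries, not on these 6 alone.

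Bone marrow-derived macrophages are grown from marrow precursors, usually with the growth factor Csf1, and resemble macrophages that arise from monocytes. Microglia, the resident macrophages of the brain, descend from yolk sac precursors and depend on Csf1r signalling and TGF-beta. They are recognised by genes such as Tmem119, P2ry12, Cx3cr1 and Sall1, most of which are little expressed by macrophages grown from marrow alone.

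RNA was counted per gene as sequenced fragments, and each level below is a CPM value, the count scaled to the size of its library, which compares one gene between libraries and not one gene with another. The day 6 libraries held 5839316 to 9000037 counts and the day 0 libraries 7991919 to 8724725, with day 6 replicate 2 the shallowest. The general macrophage markers (8 genes, Csf1r, Lyz2 and Adgre1 among them) summed to 27355 to 28843 CPM at day 6 and to more at day 0, 40739.6 to 43579.5 CPM. Each of the 8 had counts in both groups, and the sum was high in every library. Such a sum mostly reflects its most abundant members. Pairs of replicates correlated at 0.958 to 0.962 among day 6 libraries and 0.956 to 0.963 among day 0 libraries (Pearson, log2 CPM over all genes tested). In a principal component analysis of the 12 bone marrow-derived libraries, the first component (42.0% of the variance) set day 0 apart at -114.6 to -101.5, with day 6 at 30.7 to 46.6.

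Of 15000 genes tested, 2933 (19.6%) passed an adjusted p of 0.05, of which 1899 (12.7%) were higher and 1034 (6.89%) lower at day 6. The test was edgeR's quasi-likelihood test over all 24 libraries with Benjamini-Hochberg adjustment, and it underlies every adjusted p below. Of the genes that rose, 1003 did so by more than 4-fold as fitted, and of those that fell, 130 did. Both numbers include genes almost without counts on one of the days, whose fitted sizes are uncertain. At least 20 CPM in the higher group and no overlap between groups were found for 914 rises and 856 falls, numbered and clone-named genes left out. Without library scaling factors, the split of all called genes was 2328 higher (77.6% of those called) and 673 lower, against 64.7% higher with scaling. The median log2 fold change of all genes moved by 0.133. The number of lower genes was also 677 on leaving out day 0 replicate 1 and 684 on leaving out day 0 replicate 2. It was 681 on leaving out day 6 replicate 2 and 658 on leaving out day 6 replicate 3. It was 1946 when only these 6 libraries were fitted, where the coefficient of variation between replicates was 0.232, against 0.338 over all 24 libraries.

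The 12 largest rises that met the naming rule (no overlap between groups and at least 20 CPM in the higher one) included 3 genes known as microglial markers. Cx3cr1, the receptor of the neuronal chemokine fractalkine, spans chr9:119901616-120068283 in GRCm38. It had 670.5, 658 and 706 CPM at day 6, against 2.58, 0 and 1.303 CPM at day 0 (log2 fold change 9.06 ± 0.57 (SE), adjusted p = 1.3e-09). Olfml3, a secreted olfactomedin-family protein, had 123, 132 and 138 CPM at day 6, against 0.516, 0.348 and 0.1303 CPM at day 0 (log2 fold change 8.57 ± 0.52 (SE), adjusted p = 2.8e-10). The microglial surface protein gene Tmem119 (chr5:113793729-113800516) had 52.6, 57.7 and 62.5 CPM at day 6, against 0.129, 0 and 0.1303 CPM at day 0. Its counts at day 0 amounted to 3 or fewer over all libraries, so its change is given as a ratio of scaled counts, 691 (exact 95% interval 191 to 5711). In all of these genes, the day 6 libraries lay close together and far above every day 0 library.

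The other leading rises came from several classes. Fpr1, a receptor for bacterial formyl peptides, had 196, 189 and 180.4 CPM at day 6, against 0.129, 0.116 and 0 CPM at day 0, a count ratio of 2269 (exact 95% interval 628 to 18746). Cd38, an enzyme that breaks down NAD, had 809.7, 704 and 574 CPM at day 6, against 2.71, 1.86 and 2.996 CPM at day 0 (log2 fold change 8.11 ± 0.46 (SE), adjusted p = 2.6e-10). Saa3, an acute-phase protein, had 82.5, 83.6 and 65.8 CPM at day 6, against 0, 0.696 and 0.1303 CPM at day 0 (log2 fold change 7.99 ± 0.45 (SE), adjusted p = 3.2e-11). These 3 genes were nearly silent at day 0 and well counted in each day 6 library. Pmepa1, a feedback inhibitor induced by TGF-beta, had 23.3, 25.3 and 21.6 CPM at day 6, against 0, 0.116 and 0 CPM at day 0, a count ratio of 559 (exact 95% interval 99.9 to 22105). Pald1, a phosphatase-like protein, had 89.2, 86.5 and 89.7 CPM at day 6, against 0.129, 0.116 and 0.521 CPM at day 0 (log2 fold change 8.39 ± 0.64 (SE), adjusted p = 6.7e-09). Runx3, a Runt-family transcription factor, had 25.4, 18.6 and 19.1 CPM at day 6, against 0.129, 0.116 and 0.1303 CPM at day 0, a count ratio of 172 (exact 95% interval 58.4 to 835). Pmepa1, Pald1 and Runx3 stayed below 1 CPM in all day 0 libraries. Klra2, a lectin-like receptor, had 27.8, 30.1 and 23.4 CPM at day 6 and no counts at day 0, at least 215-fold higher against a floor of 3 counts over the group. H2-Q6, a non-classical MHC class I gene, had 53.1, 52.1 and 73.9 CPM at day 6, against 0, 0.812 and 0.261 CPM at day 0 (log2 fold change 7.28 ± 0.75 (SE), adjusted p = 3.6e-07). Klra2 and H2-Q6 belong to families of near-identical genes whose reads may be split between copies, so their values are uncertain. Col4a1, a collagen of basement membranes, had 66.1, 139 and 104 CPM at day 6, against 0, 0.928 and 0.782 CPM at day 0 (log2 fold change 7.44 ± 0.67 (SE), adjusted p = 5.9e-08), and its 3 day 6 libraries were the least alike of this group.

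**Figure D1:**
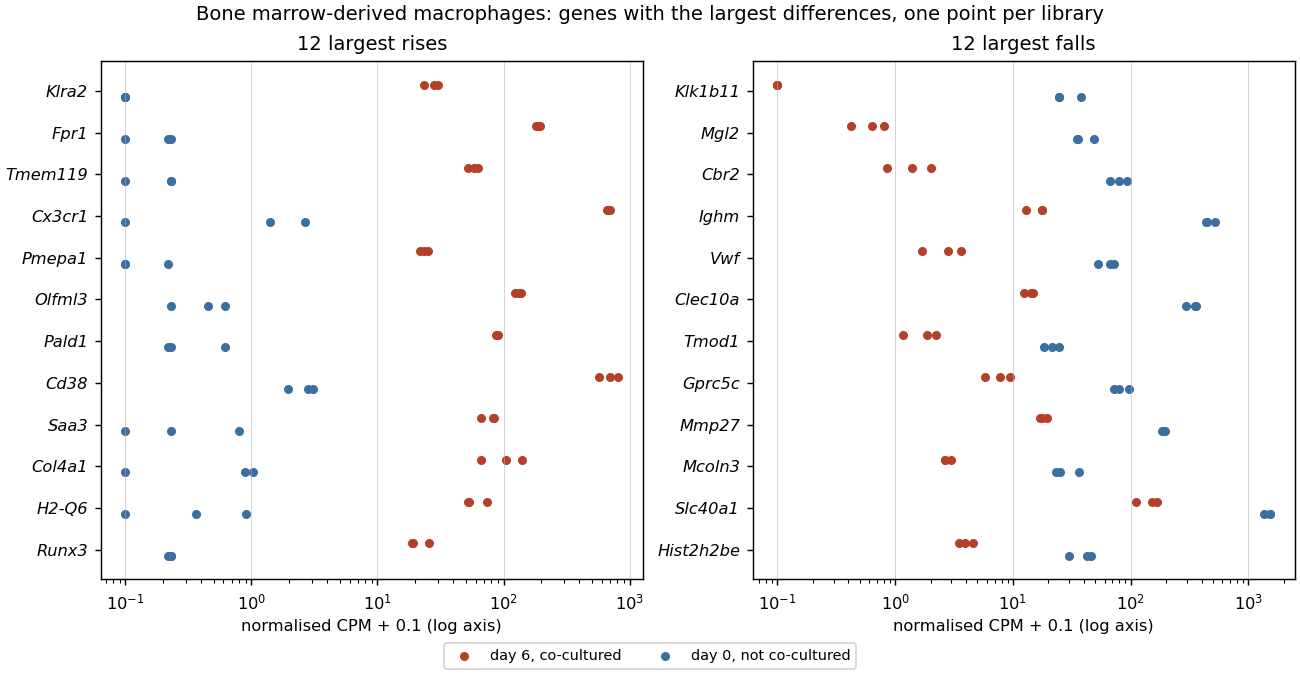
Normalised CPM plus 0.1 (log axis) of the 12 genes with the largest rises (left) and the 12 with the largest falls (right) in 3 day 6 libraries (red, upper points) and 3 day 0 libraries (blue, lower points), 1 point per library. No gene's groups overlap: Cx3cr1 lies at 658 to 706 CPM at day 6, against 0 to 2.58 CPM at day 0, and Slc40a1 at 112 to 168 CPM at day 6, against 1365 to 1524 CPM at day 0.

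The 12 largest falls that met the naming rule included 2 lectin genes of alternatively activated macrophages, Clec10a and Mgl2. Clec10a, a galactose-binding lectin, had 14.7, 14.1 and 12.4 CPM at day 6, against 353, 362 and 296 CPM at day 0 (log2 fold change -4.62 ± 0.43 (SE), adjusted p = 6.1e-08). Its relative Mgl2 had 0.532, 0.3199 and 0.701 CPM at day 6, against 35.4, 48.9 and 35.04 CPM at day 0 (log2 fold change -6.20 ± 1.04 (SE), adjusted p = 0.0002). Cbr2, a carbonyl reductase, had 0.745, 1.92 and 1.29 CPM at day 6, against 92.8, 67.04 and 79.7 CPM at day 0 (log2 fold change -5.95 ± 0.56 (SE), adjusted p = 5.9e-08). In these genes every day 6 library was at least 10-fold below every day 0 library. Slc40a1, the iron exporter ferroportin, had 168, 112 and 151 CPM at day 6, against 1524, 1365 and 1512 CPM at day 0 (log2 fold change -3.35 ± 0.37 (SE), adjusted p = 1.4e-06). Vwf, von Willebrand factor, had 1.597, 3.52 and 2.69 CPM at day 6, against 66.2, 53.01 and 72.4 CPM at day 0 (log2 fold change -4.63 ± 0.45 (SE), adjusted p = 5.5e-08). Mmp27, a matrix metalloprotease, had 17.7, 19.5 and 16.8 CPM at day 6, against 194, 186 and 193 CPM at day 0 (log2 fold change -3.41 ± 0.45 (SE), adjusted p = 8.2e-06). Slc40a1 still held more than 100 CPM in each day 6 library.

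Ighm, the heavy chain of immunoglobulin M and a B cell gene, had 17.6, 17.6 and 12.9 CPM at day 6, against 437, 516 and 447 CPM at day 0 (log2 fold change -4.87 ± 0.65 (SE), adjusted p = 1.8e-05). The other lymphocyte genes tested, Cd4, Cd79b and Il7r, did not pass, and 8 of the 14 in the list had no count at day 6 and 7 had none at day 0, Cd3e among them in both groups. The list, Ighm included, summed to 113 to 117 CPM at day 6 and 624 to 679 CPM at day 0, and the part of lymphocytes in the change of Ighm was not tested. Without day 0 replicate 1, 1 gene of the list was called higher. Klk1b11, a kallikrein, had no counts at day 6 and 37.9, 24.7 and 24.7 CPM at day 0, at least 234-fold lower, but its call was lost in DESeq2 (adjusted p = 0.22). It belongs to a family of near-identical genes and is uncertain for that reason too. Tmod1, a cap of actin filaments, had a log2 fold change of -3.70, and Gprc5c, an orphan receptor, of -3.45. Mcoln3, a lysosomal cation channel, stood at -3.39, and the histone gene Hist2h2be at -3.33.

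Of 25 homeostatic microglia genes tested, 14 rose (56% against 12.7% of all genes), 3 fell and 8 did not pass. Their median log2 fold change was 1.80 over 24 members, low counts at their bound (1.74 over all as fitted), against 0.04 over all genes. Fcrls, an Fc receptor-like scavenger receptor, had 2719, 2953 and 2803 CPM at day 6, against 666, 576 and 564 CPM at day 0 (log2 fold change 2.23 ± 0.27 (SE), adjusted p = 2.1e-06). P2ry12, the ADP receptor that steers microglial processes, had 68.7, 73.4 and 64.9 CPM at day 6, against 38.4, 24.5 and 38.3 CPM at day 0 (log2 fold change 1.03 ± 0.26 (SE), adjusted p = 0.0058). Its rise was about 2-fold, and its level at day 0 was already above 20 CPM. Sall1, the transcription factor that defines microglial identity, had 1.597, 1.599 and 2.34 CPM at day 6, against 0, 0.116 and 0 CPM at day 0, a count ratio of 44.7 (exact 95% interval 7.63 to 1806). All day 6 libraries of Sall1 lay above those of day 0, but at about 2 CPM, and its call was lost on leaving out any 1 of the 6 libraries (adjusted p up to 0.12).

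Members of the microglia list that went the other way were Entpd1, the ectonucleotidase CD39, with 325, 248 and 299 CPM at day 6, against 558, 543 and 588 CPM at day 0 (log2 fold change -0.95 ± 0.20 (SE), adjusted p = 0.0011), Bin1, a membrane-shaping protein, with a log2 fold change of -0.79, and Siglech. The sialic acid receptor gene Siglech had no counts at day 6, against 3.48, 4.06 and 2.08 CPM at day 0, at least 26.2-fold lower. That call was lost on leaving out any 1 of the day 6 libraries (adjusted p up to 0.06). The 8 defining markers of microglia taken as a set, Siglech included, summed to 3824 to 4037 CPM at day 6 and 746 to 856 CPM at day 0, and Siglech was the 1 of them with no count at day 6. Most of this sum was Fcrls, at a mean of 2825 CPM at day 6 and 602 CPM at day 0.

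Several widely used macrophage genes did not pass the test. Csf1r, the receptor of Csf1 and Il34, had 4717, 4842 and 4753 CPM at day 6, against 5167, 4881 and 5080.0 CPM at day 0 (log2 fold change -0.08, adjusted p = 0.81). Trem2, a lipid-sensing receptor of phagocytes, had 1077, 1048 and 967 CPM at day 6, against 1049, 1029 and 1032 CPM at day 0 (log2 fold change -0.01, adjusted p = 0.99). Mrc1, the mannose receptor CD206, had 1041, 965 and 993 CPM at day 6, against 976, 988 and 1299.5 CPM at day 0 (log2 fold change -0.12, adjusted p = 0.85). None of the 3 passed the test, their differences were small beside their abundance, and without library scaling all 3 had the opposite sign. Ccr2, the monocyte chemokine receptor, had 56.2, 66.9 and 39.5 CPM at day 6, against 22.9, 37.2 and 22.1 CPM at day 0 and did not pass (adjusted p = 0.091). Its groups did not overlap, and it passed in DESeq2 (adjusted p = 0.0283) and among bone marrow-derived libraries alone (adjusted p = 0.00106).

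Of 20 core macrophage genes, 6 rose (30% against 12.7% of all genes) and 3 fell (15% against 6.89%). The integrin gene Itgam (CD11b) had 371, 436 and 383 CPM at day 6, against 131, 123 and 153 CPM at day 0 (log2 fold change 1.55 ± 0.17 (SE), adjusted p = 2.6e-07). The high-affinity IgG receptor gene Fcgr1 had 549, 536 and 586 CPM at day 6, against 197, 164 and 185 CPM at day 0 (log2 fold change 1.61 ± 0.19 (SE), adjusted p = 6.9e-07). Ptprc, the leukocyte phosphatase CD45, had a log2 fold change of 0.90. Maf, a transcription factor of mature macrophages, had 251, 238 and 210.3 CPM at day 6, against 622, 649 and 636 CPM at day 0 (log2 fold change -1.45 ± 0.28 (SE), adjusted p = 0.00067). Cd68, a lysosomal membrane glycoprotein, stood at a log2 fold change of -0.71. The falls in this list were 6 rather than 3 in fits restricted to the 6 libraries compared. Of 28 transcription factor genes of macrophages and microglia, 10 rose (35.7% against 12.7% of all genes) and 4 fell (14.3% against 6.89%). There were 6 rises without day 0 replicate 1, day 0 replicate 2, day 6 replicate 1 or day 6 replicate 2, and 2 falls without day 0 replicate 2. Etv5, an ETS factor, had 138, 122 and 163 CPM at day 6, against 15.6, 8.93 and 12.4 CPM at day 0 (log2 fold change 3.52 ± 0.28 (SE), adjusted p = 2.2e-09), and Bhlhe40, a basic helix-loop-helix repressor, a log2 fold change of 1.98. Beside Maf, the falls were Tfec at -1.14, Tfeb at -0.82 and Pparg at -1.65, the last being the lipid-sensing nuclear receptor. The call of Tfeb was lost without day 0 replicate 2 or day 6 replicate 1 (adjusted p up to 0.11), and that of Pparg without day 0 replicate 2 or day 6 replicate 2 (adjusted p up to 0.06).

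Of 16 alternative activation and lectin genes, 5 fell (31.2% against 6.89% of all genes) and 3 rose (18.8% against 12.7%). Arg1, arginase, had 116, 45.9 and 90.1 CPM at day 6, against 0.129, 2.78 and 1.303 CPM at day 0 (log2 fold change 5.86 ± 0.82 (SE), adjusted p = 3.4e-05), with replicates that differed by more than 2-fold at day 6. Il4ra, a receptor subunit for Il4 and Il13, had 915, 912 and 911 CPM at day 6, against 255, 243 and 228 CPM at day 0 (log2 fold change 1.91 ± 0.24 (SE), adjusted p = 2.7e-06), and Tgm2, a transglutaminase, a log2 fold change of 1.45. Cd163, the scavenger receptor for haptoglobin and hemoglobin, had 10.96, 14.1 and 11.2 CPM at day 6, against 80.8, 97.3 and 90.9 CPM at day 0 (log2 fold change -2.89 ± 0.31 (SE), adjusted p = 7.2e-07). Among 14 markers of border-associated macrophages, Folr2, a folate receptor, was the 1 that rose (0.95), and Cd163, Cbr2 and Stab1 fell. These were 7.14% higher, against 12.7% of all genes, and 21.4% lower, against 6.89%. The call of Folr2 was lost without day 0 replicate 1 or day 6 replicate 1 (adjusted p up to 0.067), and that of Stab1 without any 1 of the 6 libraries (adjusted p up to 0.1). Lyve1 and Timd4, defining markers of such resident macrophages, held 3 or fewer counts in both groups.

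Of 24 disease-associated microglia genes, 6 rose (25% against 12.7% of all genes) and 7 fell (29.2% against 6.89%). The rises were Cst7, an inhibitor of cathepsins, with 80.6, 61.3 and 58.6 CPM at day 6, against 1.29, 3.94 and 2.996 CPM at day 0 (log2 fold change 4.59 ± 0.34 (SE), adjusted p = 9.3e-10), Itgax, Axl, Lpl, Apoe and Cd9. Itgax, the integrin CD11c, had a log2 fold change of 3.23, and Axl, a receptor for apoptotic cells, of 2.87. Lpl, lipoprotein lipase, stood at 1.999 and Cd9, a tetraspanin, at 0.91. Falls were led by Gpnmb, a glycoprotein of lipid-laden macrophages, with 3890.3, 3446 and 3507 CPM at day 6, against 11751, 11207 and 12928 CPM at day 0 (log2 fold change -1.73 ± 0.17 (SE), adjusted p = 4.7e-08), Clec7a, the beta-glucan receptor, at -2.09, and Ctsb, a lysosomal cysteine protease, at -1.19. Apoe, apolipoprotein E, had 26104, 23874 and 24598 CPM at day 6, against 13315, 12368 and 12607 CPM at day 0 (log2 fold change 0.96 ± 0.18 (SE), adjusted p = 0.00037). Genes of this list thus moved in both directions, with a median of -0.02.

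Complement genes rose or did not pass: 11 of 20 rose (55%). C1qa, a chain of the initiating C1q complex, had 2236, 2069 and 1862 CPM at day 6, against 294, 312 and 288 CPM at day 0 (log2 fold change 2.79 ± 0.20 (SE), adjusted p = 6.7e-10). C3, the central component, had 161, 164 and 172 CPM at day 6, against 19.2, 13.7 and 10.4 CPM at day 0 (log2 fold change 3.52 ± 0.35 (SE), adjusted p = 2.3e-07). In both genes all day 6 libraries were more than 5-fold above all day 0 libraries. Of 27 TGF-beta and BMP response genes, 13 rose (48.1% against 12.7% of all genes) and 1 fell (3.7% against 6.89%), with a median of 0.82 over 27 members, low counts at their bound (0.82 over all as fitted). Tgfbr1, a TGF-beta receptor kinase, had 423, 339 and 347 CPM at day 6, against 84.03, 88.4 and 87.9 CPM at day 0 (log2 fold change 2.09 ± 0.17 (SE), adjusted p = 2.2e-09). Skil, a repressor of SMAD proteins that TGF-beta induces, had 220.5, 206 and 206 CPM at day 6, against 27.5, 22.04 and 19.4 CPM at day 0 (log2 fold change 3.20 ± 0.30 (SE), adjusted p = 5.9e-08). Smad4, the shared signal carrier, had a log2 fold change of -0.86, and that call was lost on leaving out any of the day 0 libraries or day 6 replicate 3 (adjusted p up to 0.12). The ligand gene Tgfb3 had 8.41, 6.397 and 11.5 CPM at day 6 and no counts at day 0, at least 71.9-fold higher.

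Cell division genes formed 1 of the broadest changes. Of 36 mitosis genes, 30 rose (83.3% against 12.7% of all genes), 1 fell and 5 did not pass. Their median was 2.93 over 36 members, low counts at their bound (2.93 over all as fitted). Mki67, the proliferation marker Ki-67, had 45.9, 39.7 and 68.04 CPM at day 6, against 11.7, 16.4 and 8.73 CPM at day 0 (log2 fold change 2.06 ± 0.36 (SE), adjusted p = 0.0002). Tpx2, a spindle assembly factor, had 17.99, 18.4 and 27.7 CPM at day 6, against 3.35, 2.55 and 4.56 CPM at day 0 (log2 fold change 2.62 ± 0.32 (SE), adjusted p = 1.7e-06). Ccnb2, a mitotic cyclin, had 13.5, 16.6 and 22.6 CPM at day 6, against 0, 0.116 and 0.1303 CPM at day 0, a count ratio of 211 (exact 95% interval 57.98 to 1746). Hmmr, a spindle and hyaluronan-binding protein, had 15.97, 6.08 and 14.8 CPM at day 6, against 0, 0.232 and 0 CPM at day 0, a count ratio of 157 (exact 95% interval 42.98 to 1298). In these 4 genes every day 6 library lay above every day 0 library, at modest levels. Cenpa, the histone variant of centromeres, went the other way with 60.7, 49.3 and 58.1 CPM at day 6, against 419, 405 and 389.6 CPM at day 0 (log2 fold change -2.85 ± 0.24 (SE), adjusted p = 3.7e-09). It was the single mitosis gene that fell. Counting took no account of strand, so reads of genes that overlap a counted gene on the opposite strand cannot be told apart from its own.

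DNA replication genes moved in the same direction: 19 of 35 rose (54.3%) and the other 16 did not pass, with a median of 0.95. Mcm2 and Mcm5, subunits of the replicative helicase, both rose. Mcm2 had 55.8, 57.4 and 57.8 CPM at day 6, against 12.5, 10.3 and 10.4 CPM at day 0 (log2 fold change 2.36 ± 0.23 (SE), adjusted p = 3.9e-08). Mcm5 had 42.5, 54.2 and 44.9 CPM at day 6, against 10.4, 5.22 and 7.42 CPM at day 0 (log2 fold change 2.62 ± 0.38 (SE), adjusted p = 2.2e-05). Tk1, thymidine kinase, had 33.001, 40.6 and 36.8 CPM at day 6, against 3.74, 4.41 and 5.86 CPM at day 0 (log2 fold change 2.98 ± 0.38 (SE), adjusted p = 3.2e-06). The day 6 libraries of each were several-fold above those of day 0. Of 21 inhibitors of the cycle and p53 targets, 4 were higher (19% against 12.7% of all genes) and 4 lower (19% against 6.89%). Those counts were 1 higher without day 0 replicate 1 or day 6 replicate 3 and 2 without day 6 replicate 1, and 2 lower without day 0 replicate 2 or replicate 3 and 1 without day 6 replicate 1 or replicate 2. Cdkn1b, the inhibitor p27, had a log2 fold change of -1.28, and Gadd45g, a stress-induced gene, of 2.61. As markers of other cell types also rose (given further down), it was not tested whether part of the cell division signal came from cells other than macrophages.

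Promoters of dividing-cell genes commonly carry a CCAAT box, bound by NF-Y, and a cell cycle homology region (CHR), bound by the DREAM complex and its activating relatives. RefSeq promoters (GRCm38.p6, 250 bases before to 50 after the start) were matched by symbol for 10618 of the genes tested and for 30 of the 36 mitosis genes. CCAAT was found on either strand in 25 of those 30 (83.3%), against 38.5% of all 10618. TTTGAA, the letters searched for the CHR, was found in 21 of 30 (70%), against 12.0% of all. Both were present in 21 of 30, against 4.93% of all. CCAAT was also found in 15 of 16 promoters of cholesterol synthesis genes (93.8%), a list in which no member rose, in 60.7% of replication and in 58.8% of homeostatic microglia promoters. For 28 replication genes, an E2F site (TTTCCCGC, TTTGGCGC, TTTCGCGC or TTTGCCGC) was found in 10 (35.7%), against 4.1% of all. The 4 promoters below show where these letters lie in genes described above and in Cdk1, the mitotic kinase, picked after its values were seen. Cdk1 had 44.9, 39.8 and 55.6 CPM at day 6, against 18.7, 17.98 and 20.2 CPM at day 0 (log2 fold change 1.31 ± 0.30 (SE), adjusted p = 0.0025). Capitals mark CCAAT or its reverse complement and TTTGAA or its reverse complement in the first 3, and E2F letters, 2 overlapping matches on opposite strands, in Mcm5. The same windows of Mcm2 and Tk1 held no E2F letters, and that of Ccnb1, the cyclin B1 gene, held CCAAT but no TTTGAA.
Ccnb2 promoter (chr9:70421505-70421804, minus strand): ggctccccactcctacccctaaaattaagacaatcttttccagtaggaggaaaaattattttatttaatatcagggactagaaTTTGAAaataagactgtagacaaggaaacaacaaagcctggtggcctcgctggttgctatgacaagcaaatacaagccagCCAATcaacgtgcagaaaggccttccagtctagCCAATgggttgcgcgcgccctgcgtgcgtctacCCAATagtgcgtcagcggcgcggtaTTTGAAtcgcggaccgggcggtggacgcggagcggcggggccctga
Hmmr promoter (chr11:40733388-40733687, minus strand): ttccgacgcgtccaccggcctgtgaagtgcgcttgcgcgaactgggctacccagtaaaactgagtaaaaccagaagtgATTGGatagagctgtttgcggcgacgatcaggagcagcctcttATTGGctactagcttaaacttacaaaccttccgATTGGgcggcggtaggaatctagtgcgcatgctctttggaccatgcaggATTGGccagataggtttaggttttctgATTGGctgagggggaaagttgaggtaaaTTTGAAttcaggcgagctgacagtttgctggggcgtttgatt
Cdk1 promoter (chr10:69352863-69353162, minus strand): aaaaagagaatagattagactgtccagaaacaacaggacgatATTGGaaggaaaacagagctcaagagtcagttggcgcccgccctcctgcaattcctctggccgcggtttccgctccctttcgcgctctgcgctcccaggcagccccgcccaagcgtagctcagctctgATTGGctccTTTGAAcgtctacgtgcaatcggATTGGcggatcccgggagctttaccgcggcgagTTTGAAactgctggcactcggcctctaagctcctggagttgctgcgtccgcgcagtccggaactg
Mcm5 promoter (chr8:75109259-75109558, plus strand): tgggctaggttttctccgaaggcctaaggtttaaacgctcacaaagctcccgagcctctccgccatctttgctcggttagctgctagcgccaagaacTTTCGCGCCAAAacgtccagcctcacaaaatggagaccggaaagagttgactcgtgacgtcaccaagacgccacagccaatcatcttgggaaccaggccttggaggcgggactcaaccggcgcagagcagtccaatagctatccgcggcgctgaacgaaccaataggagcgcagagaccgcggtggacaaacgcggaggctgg
In Ccnb2 and Hmmr, a TTTGAA lies just after the start and several CCAAT boxes lie before it. These matches are descriptions of the sequence and do not show binding.

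Among lists with at least 8 genes tested, interferon response genes had the largest share called: 32 of 36 rose (88.9%) and 4 did not pass (Cmpk2, Gbp2, Gbp3 and Cxcl10). Their median was 1.78, and their summed level was 4834 to 5181 CPM at day 6 and 1121 to 1660.2 CPM at day 0. Oas1a, a sensor enzyme for double-stranded RNA, had 137, 145 and 153 CPM at day 6, against 21.1, 35.5 and 16.4 CPM at day 0 (log2 fold change 2.57 ± 0.19 (SE), adjusted p = 6.8e-10). Oasl1, a related protein that restrains translation of Irf7, had 23.6, 26.9 and 33.3 CPM at day 6, against 0.902, 0.812 and 1.303 CPM at day 0 (log2 fold change 4.79 ± 0.40 (SE), adjusted p = 5.1e-09). No day 0 library reached the level of any day 6 library in these genes. Irf7, the factor that amplifies type I interferon, was picked after its values were seen and had 320.1, 384 and 420.5 CPM at day 6, against 26.6, 52.5 and 21.2 CPM at day 0 (log2 fold change 3.48 ± 0.40 (SE), adjusted p = 2.4e-06).

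These genes are classically switched on through an interferon-stimulated response element (ISRE), whose core is a repeat of GAAA spaced by a pair of bases. The letters GAAANNGAA were found on either strand in 18 of 26 interferon promoters that could be matched (69.2%), against 7.55% of all 10618. The 3 promoters below show this, with each match, or run of overlapping matches, on either strand in capitals. Oas1a was named by rule, and Isg15, a ubiquitin-like modifier, and Ifit1, an RNA-binding antiviral protein, were picked after their values were seen.
Oas1a promoter (chr5:120907476-120907775, minus strand): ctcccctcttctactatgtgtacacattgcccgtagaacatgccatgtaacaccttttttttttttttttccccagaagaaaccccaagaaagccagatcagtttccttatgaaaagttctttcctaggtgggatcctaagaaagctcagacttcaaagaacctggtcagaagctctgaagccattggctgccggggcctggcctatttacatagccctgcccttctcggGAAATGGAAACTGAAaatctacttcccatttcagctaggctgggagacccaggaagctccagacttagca
Isg15 promoter (chr4:156200769-156201068, minus strand): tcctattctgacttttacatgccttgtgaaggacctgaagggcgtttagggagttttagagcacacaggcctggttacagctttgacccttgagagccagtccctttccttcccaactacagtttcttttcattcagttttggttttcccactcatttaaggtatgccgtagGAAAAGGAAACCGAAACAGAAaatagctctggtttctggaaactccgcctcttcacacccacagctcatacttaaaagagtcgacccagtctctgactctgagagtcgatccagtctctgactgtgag
Ifit1 promoter (chr19:34640639-34640938, plus strand): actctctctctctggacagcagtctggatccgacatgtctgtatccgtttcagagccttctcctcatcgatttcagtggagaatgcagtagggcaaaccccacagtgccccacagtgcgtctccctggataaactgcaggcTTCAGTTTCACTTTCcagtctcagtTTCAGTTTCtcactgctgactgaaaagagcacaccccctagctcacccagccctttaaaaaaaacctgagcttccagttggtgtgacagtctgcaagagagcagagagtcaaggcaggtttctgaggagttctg
Isg15 had 13.7, 15.2 and 9.93 CPM at day 6, against 4.25, 4.06 and 2.996 CPM at day 0 (log2 fold change 1.77 ± 0.43 (SE), adjusted p = 0.0044). Ifit1 had 38.2, 41.6 and 33.4 CPM at day 6, against 2.84, 12.1 and 7.95 CPM at day 0 (log2 fold change 2.30 ± 0.52 (SE), adjusted p = 0.0036). In each of the 3 the matches lie before the start. The window of Oasl1, which rose too, held no match to these letters.

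Antigen presentation genes rose in part. Of 16 MHC class I genes, 10 rose (62.5%). H2-K1, a classical class I heavy chain, had 4009.7, 4283 and 4611 CPM at day 6, against 1677, 1687 and 1612 CPM at day 0 (log2 fold change 1.37 ± 0.11 (SE), adjusted p = 3.7e-09). Tap1, a peptide transporter subunit, had 253, 245 and 280.2 CPM at day 6, against 46.3, 79.9 and 64.2 CPM at day 0 (log2 fold change 2.03 ± 0.22 (SE), adjusted p = 1.9e-07). H2-M3, which presents formylated peptides, stood at a log2 fold change of 1.43. Of 11 MHC class II genes, 3 rose (27.3% against 12.7% of all genes): H2-Ob at 3.97, H2-DMa at 0.74 and Ctss, the protease that trims the invariant chain, at 0.83. That count was 7 in the fit of the 6 libraries compared, and the call of H2-DMa was lost without day 6 replicate 1 (adjusted p = 0.055).

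**Figure D2:**
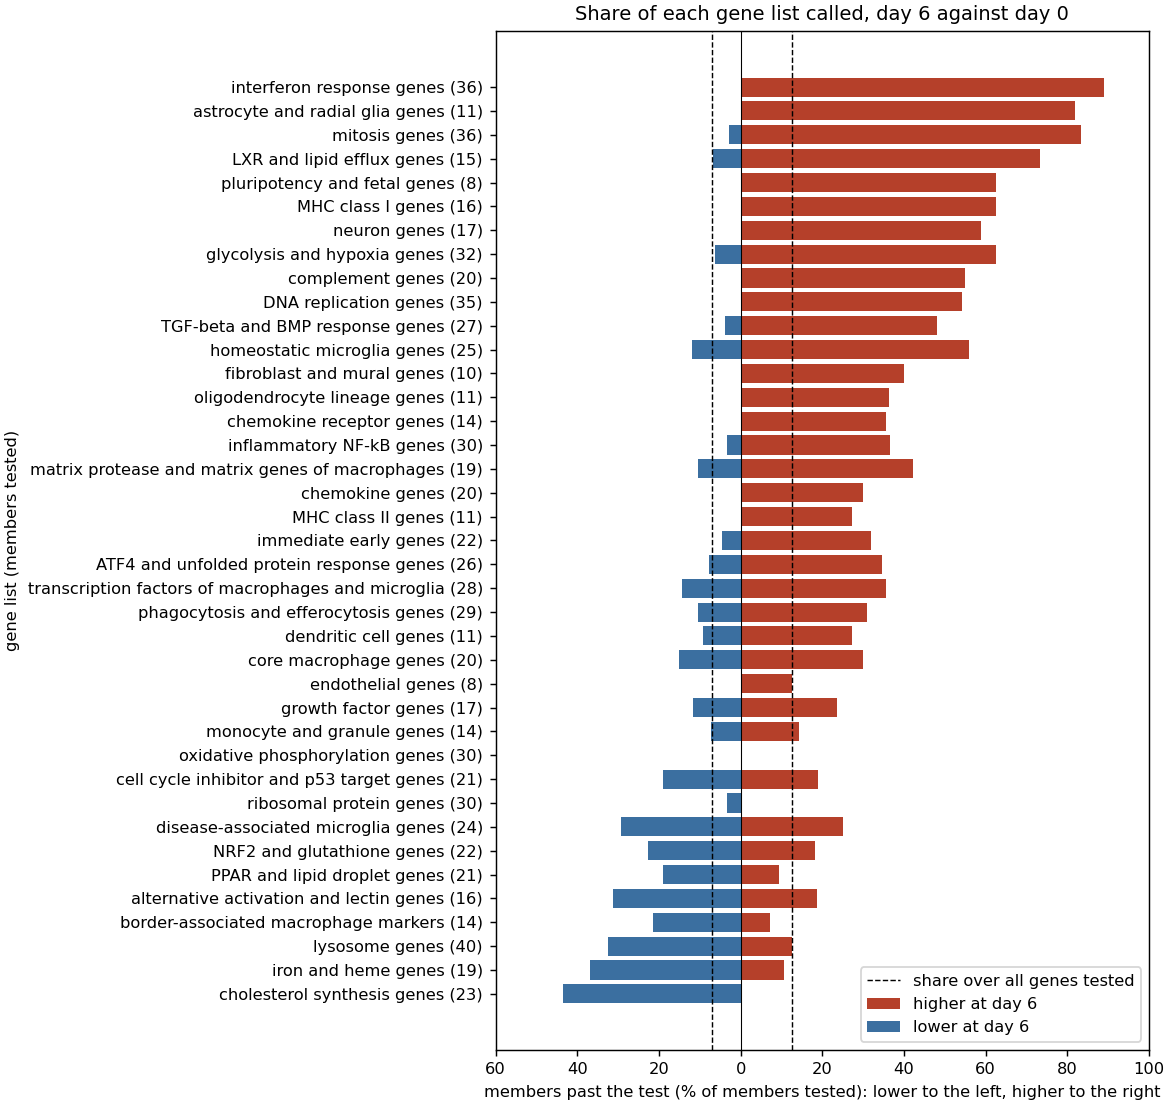
Share of the tested members of each gene list (8 or more tested) that were higher (red, to the right) or lower (blue, to the left) at day 6 than at day 0, with the number tested in brackets and dashed lines at the share over all 15000 genes (12.7% higher, 6.89% lower). Interferon response (32 of 36 higher) and mitosis genes (30 of 36 higher) stand near the top, and cholesterol synthesis genes (10 of 23 lower) at the bottom.

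Inflammatory genes of the NF-kB pathway included 11 of 30 that rose (36.7% against 12.7% of all genes) and 1 that fell (3.33% against 6.89%). Tnf, a cytokine of acute inflammation, had 41.1, 40.6 and 27.4 CPM at day 6, against 5.54, 6.96 and 1.69 CPM at day 0 (log2 fold change 2.93 ± 0.34 (SE), adjusted p = 9e-07). Tnfaip3, the feedback inhibitor A20, had 73.8, 59.02 and 64.1 CPM at day 6, against 8.12, 20.99 and 10.8 CPM at day 0 (log2 fold change 2.30 ± 0.32 (SE), adjusted p = 1.1e-05), and Tlr2, a receptor for bacterial lipoproteins, a log2 fold change of 1.14. Tnfaip2 was the 1 that fell, at -0.998. Acod1, which makes itaconate, had 12.1, 5.76 and 9.47 CPM at day 6, against 6.06, 1.74 and 1.04 CPM at day 0 and did not pass (adjusted p = 0.056). Its call depended on the fit: it passed under 8 alternatives, among them the fit of only the groups compared (adjusted p = 0.0379), DESeq2 (0.0356), the replicate block (0.02004) and leaving out day 0 replicate 1 (0.00875), which lay within the day 6 range. The count of rises was 18 without library scaling and 21 among bone marrow-derived libraries alone.

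Of 20 chemokine genes, 6 rose (30% against 12.7% of all genes), and of 14 chemokine receptor genes, 5 rose (35.7%). Ccl12, a ligand of Ccr2, had 45.5, 34.7 and 32.6 CPM at day 6, against 0.516, 0.232 and 1.69 CPM at day 0 (log2 fold change 5.54 ± 0.70 (SE), adjusted p = 5.6e-06). Ccl8 had 21.2, 19.03 and 12.7 CPM at day 6, against 0.773, 0.812 and 0.1303 CPM at day 0 (log2 fold change 4.90 ± 0.69 (SE), adjusted p = 1.4e-05). Cxcl16, a membrane-bound scavenger and chemokine, had 573, 589.8 and 558 CPM at day 6, against 135, 152 and 152 CPM at day 0 (log2 fold change 1.97 ± 0.22 (SE), adjusted p = 3e-07). The chemokine receptor gene Ccr1 had a log2 fold change of 1.85. Groups did not overlap in any of these 4 genes. The chemokine count was 12 in the fit of the 6 libraries compared, and the receptor count 3 without day 0 replicate 1, day 0 replicate 2 or day 6 replicate 2. Among 22 immediate early genes, 7 rose (31.8% against 12.7% of all genes) and 1 fell (4.55% against 6.89%). Egr1 had 580.3, 275 and 299 CPM at day 6, against 54.3, 40.4 and 77.5 CPM at day 0 (log2 fold change 2.75 ± 0.46 (SE), adjusted p = 0.0002), with day 6 replicate 1 above the other day 6 libraries. Myc, a growth-promoting transcription factor, had 12.1, 11.5 and 13.7 CPM at day 6, against 0, 1.74 and 0.521 CPM at day 0 (log2 fold change 3.98 ± 0.54 (SE), adjusted p = 7.7e-06). Nr4a1 stood at -1.49, and its call was lost on leaving out any 1 of the 6 libraries (adjusted p up to 0.15).

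Lipid genes divided by pathway. Of 15 genes of lipid efflux controlled by the oxysterol receptors LXR, 11 rose (73.3%), 1 fell and 3 did not pass. Lpl had 948, 862 and 893 CPM at day 6, against 198, 211 and 268 CPM at day 0 (log2 fold change 1.999 ± 0.24 (SE), adjusted p = 1.5e-06). Mylip, which degrades the LDL receptor, had 227, 209 and 172 CPM at day 6, against 98.7, 98.01 and 87.7 CPM at day 0 (log2 fold change 1.09 ± 0.16 (SE), adjusted p = 1.3e-05). Apoc1, an apolipoprotein, had 6.6002, 7.36 and 4.33 CPM at day 6, against 0, 0.348 and 0 CPM at day 0, a count ratio of 48.05 (exact 95% interval 16.1 to 236). Nr1h2, the gene of LXR-beta itself, stood at -0.42, a call lost on leaving out each of 5 libraries in turn (adjusted p up to 0.26). Of 23 cholesterol synthesis genes, 10 fell (43.5% against 6.89% of all genes) and 13 did not pass, with a median of -0.72. Sqle, squalene epoxidase, had 20.8, 19.5 and 27.8 CPM at day 6, against 45.2, 50.9 and 51.8 CPM at day 0 (log2 fold change -1.12 ± 0.22 (SE), adjusted p = 0.00057). Msmo1, a methylsterol oxidase, had 59.9, 58.5 and 54.7 CPM at day 6, against 109, 125 and 154 CPM at day 0 (log2 fold change -1.16 ± 0.18 (SE), adjusted p = 2.9e-05). Fdft1, squalene synthase, stood at -0.86. The number that fell was 5 on leaving out replicate 2 or 3 of day 0, 4 on leaving out replicate 2 of day 6 and 6 on leaving out its replicate 3. Among 21 PPAR and lipid droplet genes, 2 rose (9.52% against 12.7% of all genes) and 4 fell (19% against 6.89%). The falls in this list numbered 1 without day 0 replicate 2 or day 6 replicate 2. Fabp5, a fatty acid carrier, had 189, 145 and 108 CPM at day 6, against 710.2, 659.7 and 662 CPM at day 0 (log2 fold change -2.20 ± 0.43 (SE), adjusted p = 0.00096).

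Glycolysis and hypoxia genes rose in 20 of 32 cases (62.5% against 12.7% of all genes) and fell in 2 (6.25% against 6.89%). There was 1 fall without day 0 replicate 1, day 0 replicate 3, day 6 replicate 2 or day 6 replicate 3. Their median was 1.17 over 32 members, low counts at their bound (1.17 over all as fitted). Slc2a1, the glucose transporter GLUT1, had 108, 97.6 and 88.5 CPM at day 6, against 8.12, 5.22 and 12.4 CPM at day 0 (log2 fold change 3.52 ± 0.28 (SE), adjusted p = 2.7e-09). P4ha1, a collagen prolyl hydroxylase, had 313, 277 and 296 CPM at day 6, against 57.998, 56.8 and 62.4 CPM at day 0 (log2 fold change 2.32 ± 0.12 (SE), adjusted p = 5.6e-12). Hk2, an inducible hexokinase, had a log2 fold change of 1.84, while its relative Hk3 stood at -0.86. None of the 30 oxidative phosphorylation genes passed edgeR's test in either direction (4 were lower at an unadjusted p below 0.05), and DESeq2 called none either. In the fit of the 6 libraries compared, 14 of them were lower. Of 30 ribosomal protein genes, 1 fell, Rplp0 at -0.63, with 18 lower in the fit of the 6 libraries compared.

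Stress response genes were mixed. Of 26 genes of the ATF4 and unfolded protein responses, 9 rose (34.6% against 12.7% of all genes) and 2 fell (7.69% against 6.89%). There was 1 fall without day 0 replicate 2 or day 6 replicate 2. Mthfd2, a mitochondrial folate enzyme, had 17.7, 14.9 and 20.8 CPM at day 6, against 2.96, 2.8998 and 4.82 CPM at day 0 (log2 fold change 2.32 ± 0.27 (SE), adjusted p = 6.9e-07). Of 22 NRF2 and glutathione genes, 4 rose (18.2% against 12.7% of all genes) and 5 fell (22.7% against 6.89%). Gstm1, a glutathione transferase, had 106, 85.7 and 108 CPM at day 6, against 418, 396 and 390.3 CPM at day 0 (log2 fold change -2.003 ± 0.22 (SE), adjusted p = 3.1e-07). G6pdx, the entry enzyme of the pentose phosphate pathway, had 121, 114 and 128 CPM at day 6, against 273, 212 and 285 CPM at day 0 (log2 fold change -1.08 ± 0.15 (SE), adjusted p = 6.4e-06). Hmox1, heme oxygenase, had 612, 612 and 655 CPM at day 6, against 413, 385 and 413 CPM at day 0 (log2 fold change 0.63 ± 0.17 (SE), adjusted p = 0.0095). The rises in the NRF2 list numbered 2 without day 0 replicate 1, day 0 replicate 3 or day 6 replicate 2 and 1 without day 6 replicate 3, where the falls numbered 3.

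Iron and heme genes were mostly lower among those called, with 7 of 19 falling (36.8% against 6.89% of all genes) and 2 rising (10.5% against 12.7%). Beside Slc40a1 and Cd163, Ftl1, the light chain of the iron store ferritin, had 3857, 3402 and 3009 CPM at day 6, against 10909.8, 10681 and 10226 CPM at day 0 (log2 fold change -1.63 ± 0.29 (SE), adjusted p = 0.00029). Ftl1 has processed pseudogenes that can take its reads, so its level is uncertain. Cp, the ferroxidase ceruloplasmin, rose with 192, 231 and 169 CPM at day 6, against 14.3, 8.6996 and 14.7 CPM at day 0 (log2 fold change 3.97 ± 0.45 (SE), adjusted p = 2e-06). Lysosome genes included 13 of 40 that fell (32.5% against 6.89% of all genes) and 5 that rose (12.5% against 12.7%). Psap, a precursor of lipid-degrading cofactors, had 9634, 9273 and 9027 CPM at day 6, against 25033, 23631 and 24786 CPM at day 0 (log2 fold change -1.39 ± 0.11 (SE), adjusted p = 9.9e-10). Ctsb, a cathepsin, had 14475, 13928 and 14081 CPM at day 6, against 31574, 30731 and 34899 CPM at day 0 (log2 fold change -1.19 ± 0.13 (SE), adjusted p = 2e-07). Hexa, a subunit of a lysosomal hexosaminidase, had 1492, 1394 and 1338 CPM at day 6, against 2629, 2619 and 2966 CPM at day 0 (log2 fold change -0.96 ± 0.11 (SE), adjusted p = 7.5e-07). The groups did not overlap in these genes. Ctsc, which activates granule proteases, went up with 1697, 1681 and 1662 CPM at day 6, against 629.9, 571 and 631 CPM at day 0 (log2 fold change 1.46 ± 0.24 (SE), adjusted p = 7.8e-05), as did Ctss with 6002, 5740.0 and 6073 CPM at day 6, against 3261, 3331 and 3446 CPM at day 0 (log2 fold change 0.83 ± 0.14 (SE), adjusted p = 0.00014). Rises in this list were 10 without library scaling.

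Of 29 phagocytosis genes, 9 rose (31.0% against 12.7% of all genes) and 3 fell (10.3% against 6.89%). Axl, a receptor tyrosine kinase for apoptotic cells, had 241, 252 and 267 CPM at day 6, against 43.6, 34.6 and 25.7 CPM at day 0 (log2 fold change 2.87 ± 0.30 (SE), adjusted p = 2.7e-07). Its ligand gene Gas6 had 865, 865 and 831 CPM at day 6, against 1889, 1778 and 1905 CPM at day 0 (log2 fold change -1.12 ± 0.19 (SE), adjusted p = 0.00014). Receptor and ligand thus went in opposite directions. Elmo1, an adaptor of engulfment, stood at 1.18, and Mfge8, a bridge to apoptotic cells, at -0.57, with a call lost without day 0 replicate 3, day 6 replicate 1 or day 6 replicate 2 (adjusted p up to 0.14). The falls numbered 1 on leaving out each of those 3 libraries, and the counts were 15 higher and 8 lower in the fit of the 6 libraries compared.

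Matrix and growth factor genes rose in part, where 12.7% of all genes were higher and 6.89% lower. Of 19 matrix genes, 8 rose (42.1%) and 2 fell (10.5%). Of 17 growth factor genes, 4 rose (23.5%) and 2 fell (11.8%). Mmp14, a membrane-bound collagenase, had 187, 243 and 249.6 CPM at day 6, against 2.45, 1.51 and 2.21 CPM at day 0 (log2 fold change 6.78 ± 0.59 (SE), adjusted p = 7.1e-08). Sparc, a collagen-binding protein, had 47.2, 44.9 and 65.8 CPM at day 6, against 0, 1.86 and 0.261 CPM at day 0 (log2 fold change 6.13 ± 0.64 (SE), adjusted p = 5.6e-07). Nid1, a basement membrane linker, had 18.2, 16.2 and 14.1 CPM at day 6, against 0.129, 0.232 and 0 CPM at day 0, a count ratio of 130.2 (exact 95% interval 44.2 to 634). None of these 3 genes reached 3 CPM in any day 0 library. Pdgfb had a log2 fold change of 1.11 and Hgf of 1.28. Igf1, a growth factor that macrophages secrete, had 436, 486 and 356 CPM at day 6, against 629.9, 613 and 647 CPM at day 0 (log2 fold change -0.56 ± 0.16 (SE), adjusted p = 0.014), and its call was lost without day 0 replicate 3 or day 6 replicate 3 (adjusted p up to 0.097). The call of Gdf15, the other fall, was lost on leaving out any 1 of the 6 libraries (adjusted p up to 0.15), so that no fall among growth factor genes was left without day 0 replicate 3 or day 6 replicate 3. Falls among matrix genes numbered 1 without day 0 replicate 2, day 0 replicate 3, day 6 replicate 2 or day 6 replicate 3.

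Markers of some other cell types were higher in the same contrast. Of 17 neuron genes tested, 10 rose (58.8% against 12.7% of all genes). Their list (19 genes) summed to 56.5 to 96.8 CPM at day 6 and 7.99 to 10.4 CPM at day 0. Nefm and Slc17a6 had no count at day 6, and 8 of the 19 had none at day 0, Syt1 and Rbfox3 among them. Of 11 astrocyte and radial glia genes, 9 rose, with a sum of 61.4 to 99.9 CPM at day 6 and 15.2 to 27.3 CPM at day 0 and with every gene counted in both groups. Gfap, the intermediate filament of astrocytes, had 10.1, 8.32 and 12.04 CPM at day 6, against 0.129, 0.348 and 0 CPM at day 0 (log2 fold change 5.83 ± 0.77 (SE), adjusted p = 4.3e-06). Tubb3, a neuronal tubulin, had 6.28, 6.72 and 10.4 CPM at day 6, against 0, 0.348 and 0.261 CPM at day 0 (log2 fold change 5.15 ± 0.69 (SE), adjusted p = 5.1e-06). These levels were low, but no day 0 library reached them.

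Fibroblast and mural genes (4 of 10 higher) summed to 41.8 to 74.8 CPM at day 6 and 4.69 to 20.6 CPM at day 0, and none of the 4 calls was made on leaving out replicate 1 or 3 of day 0 or replicate 3 of day 6. Pdgfrb, Thy1 and Mfap5 had no count at day 6, and Thy1 and Mfap5 none at day 0. Oligodendrocyte lineage genes (4 of 11 higher, 2 without day 0 replicate 1 or day 6 replicate 3) summed to 159 to 206 CPM at day 6 and 136 to 139.8 CPM at day 0, with Mog at 0 at day 6 and Sox10 and Cspg4 at 0 at day 0. Endothelial genes (1 of 8 higher, 12.5% against 12.7% of all genes) summed to 25.3 to 32.95 CPM at day 6 and 5.22 to 8.73 CPM at day 0, with Cldn5, Emcn and Tie1 at 0 in both. Pluripotency and fetal genes (5 of 8 higher) summed to 57.4 to 87.995 CPM at day 6 and 8.64 to 10.2 CPM at day 0. At day 0, 6 of the 12 had no count, Pou5f1 and Nanog among them. At day 6, Pou5f1, Nanog and Lin28a together summed to 0.64 to 1.70 CPM. Dppa5a, Lin28a, Nanog and Utf1 were too scarce to be tested. H19, an imprinted fetal RNA, had 17.2, 11.7 and 20.3 CPM at day 6, against 0, 1.04 and 0.1303 CPM at day 0 (log2 fold change 5.28 ± 0.76 (SE), adjusted p = 2.2e-05). Of 14 monocyte and granule genes, 2 rose (14.3% against 12.7% of all genes) and 1 fell (7.14% against 6.89%). Without day 0 replicate 2, 4 members of that list rose. Of 11 dendritic cell genes, 3 rose (27.3% against 12.7%) and 1 fell (9.09% against 6.89%). Leaving out any 1 of the day 6 libraries removed both of these falls. Among the dendritic rises, Ccr7 had 0, 7.84 and 1.64 CPM at day 6 and no counts at day 0. Its call was lost without any 1 of the day 0 libraries or without day 6 replicate 2 (adjusted p up to 0.1). Of the mast cell, basophil and erythroid genes, 1 could be tested and it fell. Members with 3 or fewer counts in at least 1 of the 2 groups numbered 12 of 17 neuron genes. They numbered 3 of 11 astrocyte and radial glia genes and 4 of 11 oligodendrocyte lineage genes. They numbered 3 of 10 fibroblast and mural, 5 of 8 endothelial and 4 of 8 pluripotency and fetal genes. The fitted sizes of such members are uncertain. The part of non-macrophage cells in the rises of matrix, growth factor, TGF-beta, cell division, homeostatic microglia, complement and interferon genes was not tested. In bulk RNA, fewer cells of a type and less RNA per cell cannot be told apart.

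**Figure D3:**
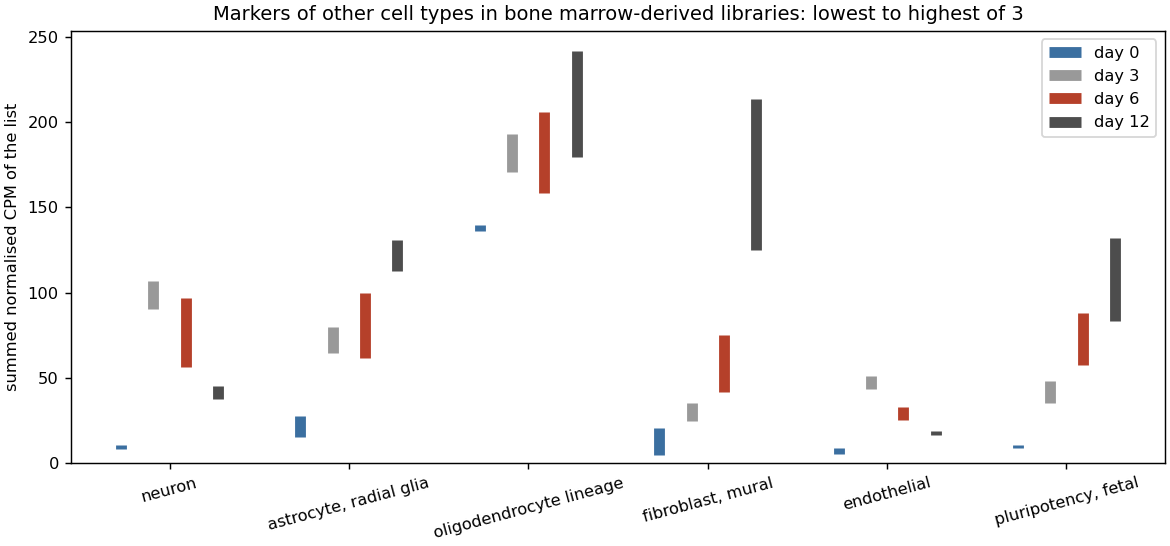
Summed normalised CPM (vertical axis) of 6 lists of markers of other cell types in bone marrow-derived libraries, each bar running from the lowest to the highest of 3 libraries, by day. Neuron genes lie at 56.5 to 96.8 CPM at day 6, above the 7.99 to 10.4 CPM of day 0, and fibroblast and mural genes are highest at day 12.

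Day 6 was next set beside the other co-cultured days, which share the day 6 libraries with the comparison above. Against day 3, 127 genes (0.847%) differed, 62 higher (0.413%) and 65 lower (0.433%) at day 6. Leaving out 1 library at a time gave counts of 74, 60 and 47 without day 3 replicates 1, 2 and 3, and of 66, 71 and 52 without day 6 replicates 1, 2 and 3. With the 6 libraries alone the count was 1170. Of 25 homeostatic microglia genes, 6 were higher at day 6 than at day 3. Cx3cr1 had 670.5, 658 and 706 CPM at day 6 and 157, 148 and 218 CPM at day 3 (log2 fold change 1.96 ± 0.38 (SE), adjusted p = 0.014). Fcrls had 2719, 2953 and 2803 CPM at day 6 and 906, 965 and 1178 CPM at day 3 (log2 fold change 1.47 ± 0.26 (SE), adjusted p = 0.0044). The same held for 6 of 35 replication genes and 5 of 36 mitosis genes. Mcm2 had 55.8, 57.4 and 57.8 CPM at day 6 and 14.2, 13.5 and 13.95 CPM at day 3 (log2 fold change 2.04 ± 0.22 (SE), adjusted p = 1e-05). Mki67 had 45.9, 39.7 and 68.04 CPM at day 6 and 14.7, 19.8 and 14.1 CPM at day 3 (log2 fold change 1.66 ± 0.35 (SE), adjusted p = 0.02). Saa3 was lower at day 6, with 82.5, 83.6 and 65.8 CPM at day 6 and 564, 836 and 508 CPM at day 3 (log2 fold change -3.04 ± 0.28 (SE), adjusted p = 1.7e-06). Hmox1 had 612, 612 and 655 CPM at day 6 and 1621, 1621 and 1634 CPM at day 3 (log2 fold change -1.38 ± 0.17 (SE), adjusted p = 7.8e-05). C3 had 161, 164 and 172 CPM at day 6 and 515, 496 and 571 CPM at day 3 (log2 fold change -1.67 ± 0.32 (SE), adjusted p = 0.0086). These 3 genes were above day 0 on day 6 and higher still on day 3.

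Between days 12 and 6, 78 genes (0.52%) differed, 22 higher (0.147%) and 56 lower (0.373%) at day 12. Leaving out 1 library gave 22, 29 and 30 without day 6 replicates 1, 2 and 3, and 39, 28 and 20 without day 12 replicates 1, 2 and 3. With the 6 libraries alone the count was 945, and with the replicate number as a block it was 123. Higher at day 12 was Pmepa1, with 80.1, 90.8 and 114 CPM at day 12 and 23.3, 25.3 and 21.6 CPM at day 6 (log2 fold change 2.02 ± 0.36 (SE), adjusted p = 0.0052). Cbr2, which had fallen by day 6, had 6.01, 9.51 and 8.902 CPM at day 12 and 0.745, 1.92 and 1.29 CPM at day 6 (log2 fold change 2.66 ± 0.52 (SE), adjusted p = 0.019). Lower at day 12 were 3 of 16 MHC class I genes, H2-K1 with 2378, 2346 and 2086 CPM at day 12 and 4009.7, 4283 and 4611 CPM at day 6 (log2 fold change -0.92 ± 0.11 (SE), adjusted p = 7.4e-05), H2-D1 and H2-T23. Psap had 5565, 5349 and 4741 CPM at day 12 and 9634, 9273 and 9027 CPM at day 6 (log2 fold change -0.84 ± 0.10 (SE), adjusted p = 9.2e-05).

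**Figure D4:**
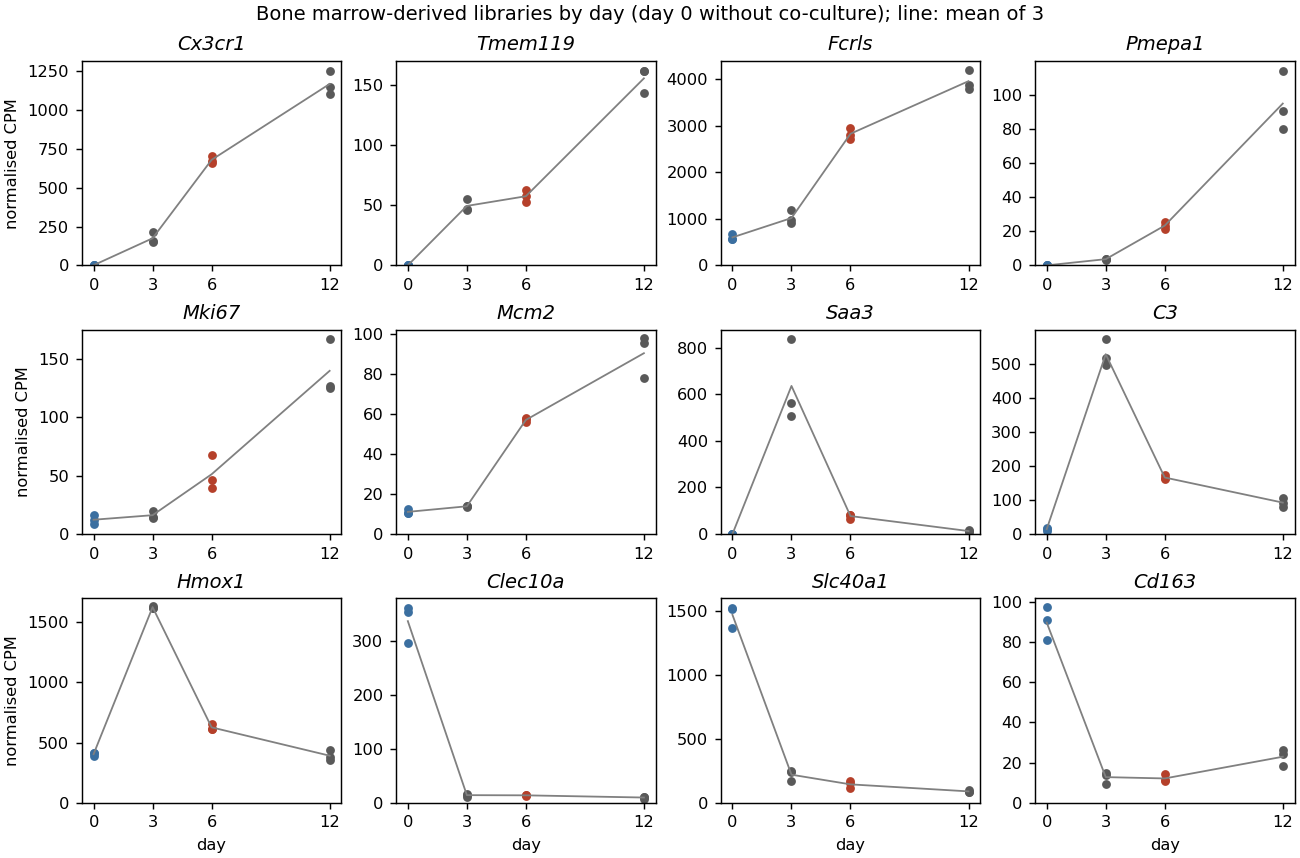
Normalised CPM (vertical axes, from 0) of 12 genes in bone marrow-derived libraries by day in culture (horizontal axes), 1 point per library and a line through the means of 3, with day 0 in blue and day 6 in red. Pmepa1 is higher on day 12 than on day 6, and the day 12 points of Cx3cr1 and Fcrls lie above those of day 6 without passing the test (adjusted p = 0.485 and 0.53 in edgeR), while Saa3, C3 and Hmox1 are highest at day 3, and Clec10a, Slc40a1 and Cd163 are low on each co-cultured day.

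The same contrast in iPSC-derived macrophages served as the closest comparison, and the difference between the changes was tested as an interaction. The change differed for 2951 genes (19.7%), 1658 with a higher change (11.1%) and 1293 with a lower change (8.62%) in bone marrow-derived cells. Of 36 interferon response genes, 35 had a higher change in bone marrow-derived cells. In iPSC-derived libraries this list summed to 2511 to 3207 CPM at day 6 and 5263 to 7875 CPM at day 0, with a median log2 fold change of -1.15, against 1.78 in bone marrow-derived cells. Of 36 mitosis genes, 34 had a higher change in bone marrow-derived cells. The mitosis list, Cenpa included, summed to 686 to 979 CPM at day 6 and 555 to 617 CPM at day 0 in bone marrow-derived libraries. In iPSC-derived libraries it summed to 468 to 754 CPM at day 6 and 1281 to 1956 CPM at day 0. At day 0 both lists summed higher in every iPSC-derived library than in every bone marrow-derived one. Glycolysis and hypoxia genes (25 of 32 with a higher change) and genes of the ATF4 and unfolded protein responses (20 of 26) went the same way.

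Among homeostatic microglia genes, 6 of 25 had a higher and 8 a lower change in bone marrow-derived cells. Cx3cr1 had 1207, 1829.9 and 1063 CPM at day 6, against 121, 102 and 49.7 CPM at day 0, in iPSC-derived cells, a log2 fold change of 3.91, against 9.06 in bone marrow-derived cells (difference 5.15 ± 0.65 (SE), adjusted p = 1.1e-05). At day 6 every bone marrow-derived library lay below every iPSC-derived one for this gene. Fcrls had 3045, 3389 and 2392 CPM at day 6, against 132, 115 and 70.7 CPM at day 0, in iPSC-derived cells, and its change was smaller in bone marrow-derived cells (difference -2.56 ± 0.37 (SE), adjusted p = 2.4e-05). For Apoe the difference was -2.39 ± 0.26 (SE), adjusted p = 3.4e-07, with changes of 0.96 in bone marrow-derived and 3.35 in iPSC-derived cells. For C1qa (difference 0.46 ± 0.27 (SE), adjusted p = 0.25) and P2ry12 (difference -0.83 ± 0.37 (SE), adjusted p = 0.12) it did not pass, which does not show that the changes were alike. Slc40a1 had 392, 558 and 316 CPM at day 6, against 171, 128 and 269 CPM at day 0, in iPSC-derived cells, with a change of opposite sign to that in bone marrow-derived cells (difference -4.51 ± 0.50 (SE), adjusted p = 1.8e-06). Clec10a stood at 3.63, 0.372 and 0.293 CPM at day 6, against 1.75, 1.75 and 4.18 CPM at day 0, in iPSC-derived cells, so it was scarce there on both days.

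**Figure D5:**
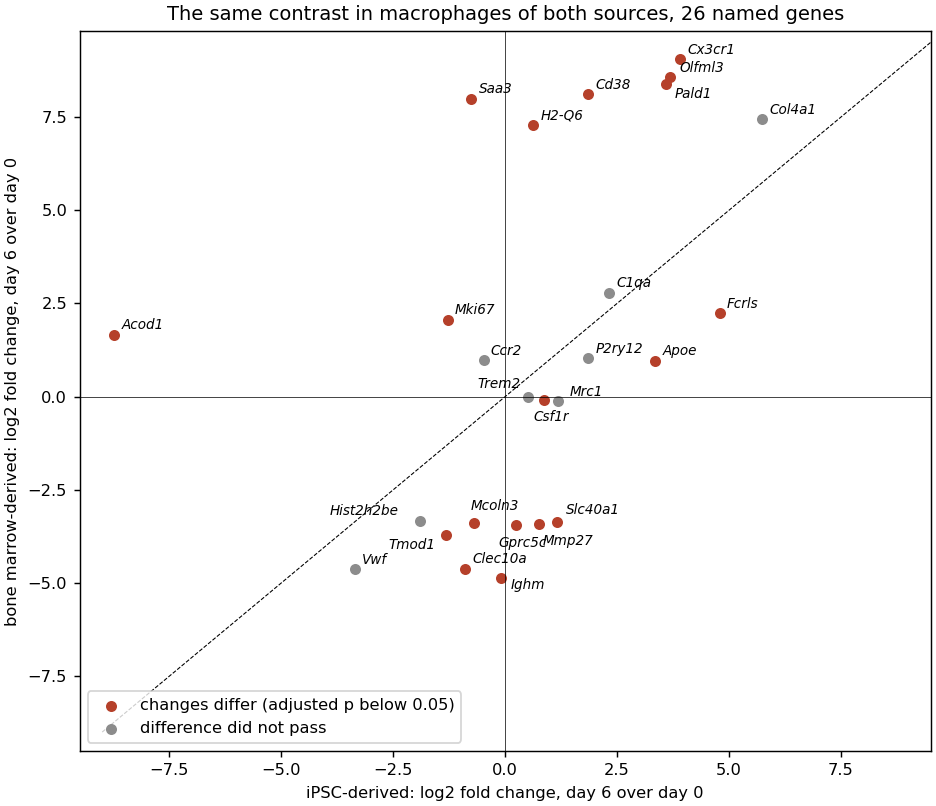
Log2 fold change of day 6 over day 0 in bone marrow-derived macrophages (vertical axis) and in iPSC-derived macrophages (horizontal axis) for the 26 named genes with more than 3 counts in each of the 4 groups, with equal changes on the dashed line. Red points mark the 18 genes whose changes differed. Acod1 lies at 1.66 in bone marrow-derived and -8.73 in iPSC-derived cells, and C1qa near the line. Genes outside the panel were chosen by their large change in bone marrow-derived cells.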

How the data were processed

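The 24 libraries were made with a modified SMART-seq v2 protocol from total RNA with ERCC spike-ins and sequenced as paired ends, per the labels' protocols. The counts of fragments per gene were made by the authors with STAR and featureCounts 1.5.0-p1 on GENCODE vM9 exons (mm10/GRCm38) with no strand setting, per the file headers and the submitters' processing notes, and deposited without normalisation. Here, 15000 genes that passed filterByExpr (minimum count 10, minimum total 15) entered edgeR 4.0.16 (R 4.3.3) with TMM scaling, 1 quasi-likelihood fit over 8 groups of 3 libraries, robust, and Benjamini-Hochberg adjustment within each comparison at 0.05. CPM are TMM-normalised. Rows without a symbol held 0.0635% of counts.

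Genes whose lower group held 3 or fewer counts are given as a ratio of scaled counts with an exact 95% interval, which covers counting error only, or as a bound against 3 counts over the group. Named genes were the 12 largest called rises and 12 largest called falls (no overlap between groups, at least 20 CPM on average in the higher group, numbered and clone-named genes left out), a panel of 16 genes, and in each list up to 3 called members per direction with the lowest adjusted p together with members called against the majority of their list; any other gene named was picked after its values were seen. A few genes are not reported here. The gene lists, the panel and the members were chosen with earlier results of these data known. The steps were tested on simulated data.

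Libraries with the same replicate number did not deviate together (correlations of -0.0131 to 0.0355 over day 6 and day 0), so the number was not used as a block. Alternatives were DESeq2 size factors, no scaling factors, no filter, a replicate block, DESeq2 1.42.0, fits restricted to the groups compared or to bone marrow-derived libraries, and leaving out each library. Figures were drawn with matplotlib 3.10.9.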

Additional observations from a re-analysis of the deposited data

Results flagged for a closer look

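The change between day 6 and day 0 was tested for a difference between bone marrow-derived and iPSC-derived macrophages (edgeR's interaction term, log2 scale, bone marrow-derived minus iPSC-derived) in the 26 of 35 leading and panel genes with more than 3 counts in each of the 4 groups, and 18 differed. Higher changes in bone marrow-derived cells were found for Acod1 (10.38), Saa3 (8.75), H2-Q6 (6.65), Cd38 (6.25), Cx3cr1 (5.15), Olfml3 (4.88), Pald1 (4.81) and Mki67 (3.34). Bone marrow-derived day 0 libraries together held 6 counts of Pald1, 7 of Saa3, 8 of Olfml3 and 9 of H2-Q6, so these sizes are uncertain. Mean day 6 levels were lower in bone marrow-derived than in iPSC-derived cells for Cx3cr1 (678 against 1367 CPM), Olfml3 (131 against 219 CPM) and Pald1 (88.5 against 149 CPM). They were higher for Acod1, Saa3, H2-Q6, Cd38 and Mki67. For Acod1 the changes were 1.66 in bone marrow-derived cells, which was not called there, and -8.73 in iPSC-derived cells. Lower changes in bone marrow-derived cells were found for Ighm (-4.78), Slc40a1 (-4.51), Mmp27 (-4.17), Clec10a (-3.72), Gprc5c (-3.70), Mcoln3 (-2.70), Fcrls (-2.56), Apoe (-2.39), Tmod1 (-2.38) and Csf1r (-0.95). Fcrls and Apoe rose in bone marrow-derived cells and had the larger change in iPSC-derived cells, whereas Csf1r was not called in bone marrow-derived cells.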

How the results depend on the processing

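Leaving out 1 library at a time gave 658 to 723 lower genes for day 6 against day 0, 47 to 74 called genes for day 6 against day 3 and 20 to 39 for day 12 against day 6. The number higher at day 6 than at day 0 stayed within 1.5 times its main value in all alternatives, as did the count for the difference between sources. Lower genes numbered 673 without scaling factors, 1946 with only the groups compared and 1786 with only bone marrow-derived libraries. For day 6 against day 3 the count was 438 without the filter on low counts, 336 in DESeq2, 1170 with only the groups compared and 748 with only bone marrow-derived libraries. For day 12 against day 6 it was 537 without the filter, 252 in DESeq2, 945 with only the groups compared and 1012 with only bone marrow-derived libraries. The coefficient of variation between replicates was 0.338 over all libraries, 0.241 in bone marrow-derived and 0.413 in iPSC-derived ones; the cause of these differences in counts was not tested.

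With the replicate number as a block, 1884 genes were higher and 1085 lower at day 6 than at day 0, 170 differed between days 6 and 3, 123 between days 12 and 6, and 2973 between sources. The labels do not tie equal numbers to a shared animal or day. Between days 6 and 3, deviations of libraries from their group mean correlated at 0.02972 to 0.03975 for equal numbers. For unequal numbers they correlated at -0.0354 to 0.0051. Between days 12 and 6, equal numbers correlated at -0.0209 to 0.0217.

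The log2 fold change of Trem2, which was not called, turned positive with DESeq2 size factors (0.0179), without scaling factors (0.125), without the filter (0.0240), in DESeq2 (0.0179) and in bone marrow-derived libraries alone (0.0126), and ran between -0.0411 and 0.0354 on leaving out single libraries. Without scaling factors Csf1r stood at 0.0549 and Mrc1 at 0.0139, and Mrc1 ran between -0.169 and 0.0471 on leaving out single libraries. Of 167 named genes called, 133 kept the call in all alternatives, 33 lost it on leaving out at least 1 library and 13 under at least 1 other setting. With 3 libraries per group and a shallowest library of 5839316 counts, genes of few counts carry wide intervals.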
